A study of Phyllotreta striolata with 15 samples.

Results

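Male adults of the striped flea beetle, Phyllotreta striolata, were compared with pupae in whole-body RNA, with 3 male libraries and 3 pupal libraries out of the 15 in the series. The libraries were chosen by their labels and not by any measured value. The other 9 libraries are 3 each of eggs, larvae and female adults. All of them are whole bodies of the same species, and no strain, age, treatment or genotype is given for any group. The sex of the pupae is not given either, nor whether a library is 1 animal or a pool. Reads were counted for 11862 genes, and totals were 18015995 to 23367276 counts in males and 29280435 to 32598781 in pupae. The column names of pupae carry another prefix than those of adults and larvae, and whatever the prefixes stand for cannot be told apart from the step between pupae and males. Genes are known here by identifier only, since the files do not pair the identifiers with gene names, so no function is given for any gene.

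Flea beetles undergo complete metamorphosis. In the pupa, which does not feed, larval tissues are broken down and the adult cuticle, muscles, sense organs and reproductive organs are built. The adult male feeds on leaves of cruciferous plants, moves by jumping and flight, and makes sperm and seminal fluid. In many beetles the formation of sperm starts in the testis before the adult emerges. The comparison therefore bears on which transcripts the emerged male carries that the pupa does not, which pupal transcripts it no longer carries, and which genes of males are already transcribed in pupae.

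Male adults and pupae differed in 4075 of 11440 genes tested. In males 2106 genes were higher, 18.4% of those tested, and 1969 were lower, 17.2% of those tested (edgeR's quasi-likelihood fit, with an adjusted p below 0.05 and a change of 2-fold or more). "Rose" and "fell" below mean these calls, from pupae to male adults. Genes that rose did so by a median log2 change of 2.44 and genes that fell by one of -2.04, with genes absent from one side set at their lower bound. Changes of 8-fold or more (log2 of 3) numbered 830 among genes that rose and 652 among genes that fell. Of the genes that rose, 75 had no count in any pupal library, and of those that fell, 61 had no count in any male library. The library values of males and pupae did not overlap in 1984 of the genes that rose and in 1966 of those that fell, which were called on these same libraries. Over all genes tested, every male library was above every pupal one in 4066 (35.5%) and the reverse held in 3979 (34.8%). Over all genes tested the median log2 change was 0.10, and it was 0.31 when libraries were scaled by size alone, so that small shifts have no firm sign.

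**Figure D1:**
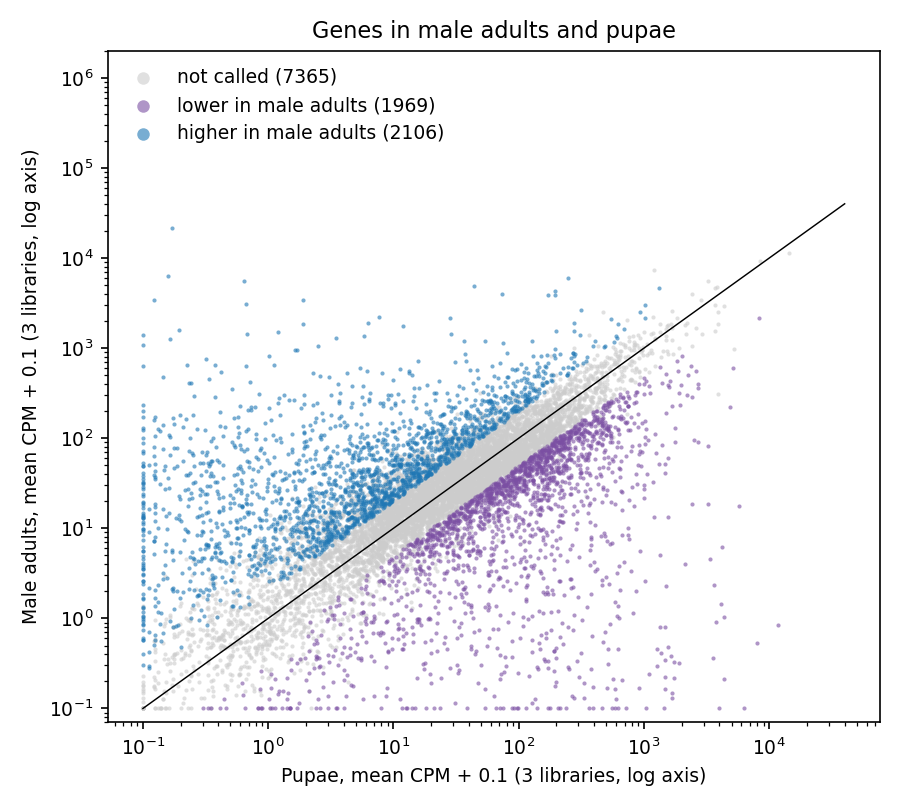
Mean CPM (counts scaled to a fixed library total by TMM) of each of 11440 genes in pupae (x) and male adults (y), 3 libraries each, both axes logarithmic after adding 0.1. The black line marks equal levels; 2106 genes called higher in males lie above it and 1969 called lower lie below it.

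Within the groups, pupal libraries were closely alike, with Spearman's rho across genes of at least 0.979. Male libraries varied more, from 0.897 to 0.977. Male adult replicate 2 stood nearest to the pupae, with a rho of 0.677 to 0.703 against 0.638 to 0.659 for male replicates 1 and 3. It also stood furthest from the females, with 0.582 to 0.667 against 0.668 to 0.779. Without it, 1921 genes rose and 1960 fell.

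The largest single gain was that of CAG9854698.1. Its counts were 312786, 557189 and 494907 in male adult replicates 1, 2 and 3, and 2, 0 and 4 in the pupal libraries. In CPM it stood at 21705 ± 4281 in males (SD, n = 3) and at 0.0693 ± 0.0663 in pupae (SD, n = 3). All male libraries were high and all pupal ones near 0, with a log2 change of 18.11 ± 1.06 (SE, adjusted p = 2.17e-06, edgeR). Female libraries held 0, 2 and 0 counts of it. In the authors' group means, which are scaled for gene length, it reached 44005 TPM in males.

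CAG9862378.1 showed the next largest gain in mean CPM. Its 3 male libraries held 5829, 7086 and 5948 CPM and its pupal libraries 0, 0.0773 and 0.0991 CPM. Males and pupae did not overlap, and the log2 change was 16.55 ± 1.70 (SE, adjusted p = 1.73e-05, edgeR). Females held 0, 0.552 and 0.494 CPM. Both genes are on the authors' list of genes specific to males, which was drawn up on these libraries.

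Among the genes that fell, CAG9860654.1 had the largest fold change. It stood at 5725, 7516 and 5546 CPM in the pupal libraries and had no count in any male library. Males were at least 130257-fold lower, taking 3 counts over the 3 male libraries as the floor, which covers counting error only (adjusted p = 0.000189, edgeR). The female libraries held no count of this gene either.

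CAG9864154.1 showed the largest loss in mean CPM. It was at 16654, 10789 and 7865 CPM in pupae and at 1.04, 0.759 and 0.416 CPM in males. In pupae it made up 24676 TPM in the authors' means. The groups did not overlap, and males were lower by a log2 change of -13.97 ± 1.46 (SE, adjusted p = 1.88e-05, edgeR). Females held 0, 1.43 and 0.700 CPM. The authors' pupal list holds this gene and CAG9860654.1.

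**Figure D2:**
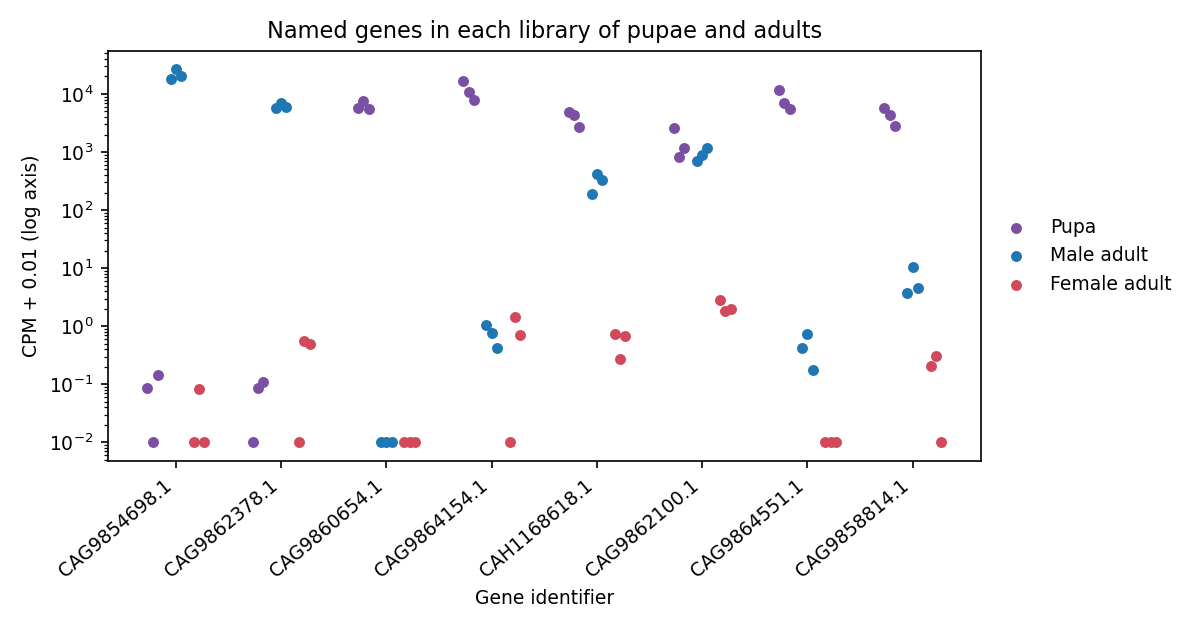
CPM plus 0.01 (logarithmic axis) of the 8 genes named in the text, in each library of pupae, male adults and female adults, with 1 point per library. CAG9854698.1 and CAG9862378.1 are high in males alone among these 3 groups; CAG9860654.1, CAG9864154.1, CAG9864551.1 and CAG9858814.1 are far higher in pupae than in males, and CAH1168618.1 and CAG9862100.1 are high in both.

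The turnover took up a large part of each library. Genes that rose held 4.33%, 4.72% and 4.65% of the counts of pupal replicates 1, 2 and 3, and 35.3%, 30.4% and 33.0% of those of the male libraries. Genes that fell held 45.2%, 45.6% and 43.9% of pupal counts and 8.56%, 8.67% and 8.37% of male counts. The libraries that called the genes are the ones in which these shares are taken, so they describe the size of the change and do not test it. In female adults, which are on neither side of the comparison but share its fit, genes that rose held 26.7 ± 0.255% of counts (SD, n = 3) and genes that fell 12.4 ± 0.343%. Female libraries thus lay far from the pupal values in both respects, and nearer to the male ones. Larvae did so too, at 29.0 ± 5.64% and 14.1 ± 3.53% (SD, n = 3), while eggs held 8.10 ± 0.320% and 22.8 ± 2.08%. Among the 10 most abundant genes by the authors' mean TPM, males and pupae had 0 in common, and among the 100 most abundant they had 50. Of the male 10, 7 rose, and of the pupal 10, 9 fell.

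**Figure D3:**
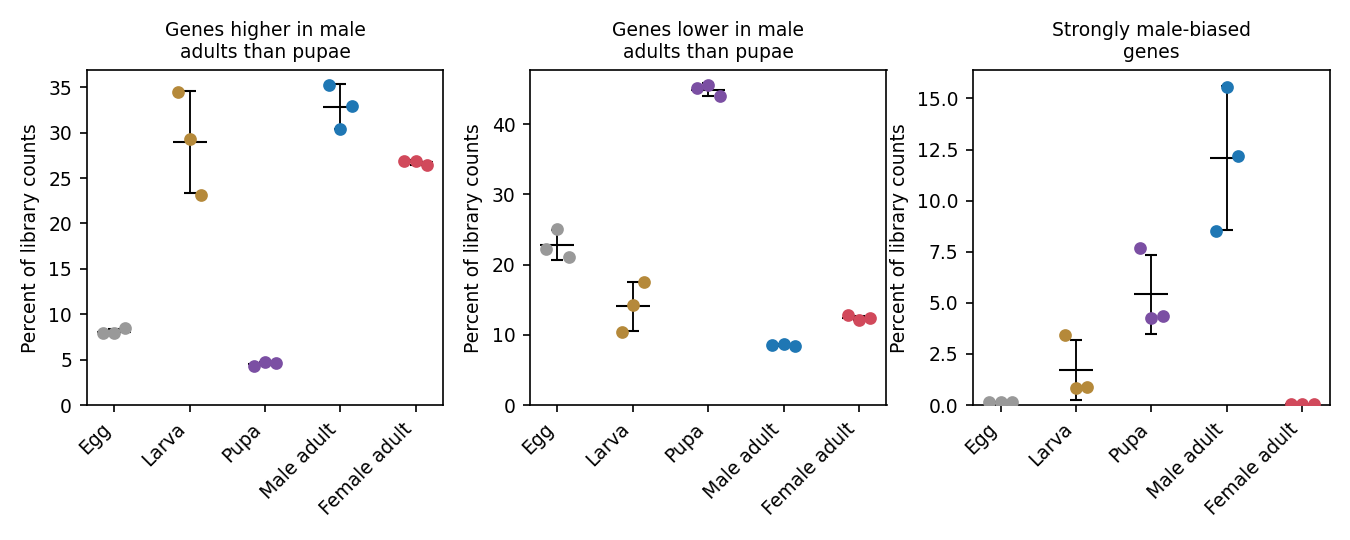
Percent of each library's counts in genes called higher in males than pupae (left), lower in males than pupae (middle) and strongly male-biased (right). Points are single libraries in 5 groups and bars are the mean with its SD (n = 3); genes that rose take 4.33% to 4.72% of pupal counts and 30.4% to 35.3% of male counts.

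Most of the change was one of level, not of presence. A gene is called on here at 1 CPM or more in each library of a group, and off under 1 CPM in each. Males and pupae both had 9593 genes on. A set of 413 genes was on in males and off in pupae, and 263 were on in pupae and off in males. Of the genes that rose, 1488 (70.7%) were already on in pupae, against 88.2% of all genes tested. Of those that fell, 1590 (80.8%) were still on in males, against 89.8% of all genes tested. The calls favour low levels on these sides. Most of the genes gained outright were on in another group as well, or reached 1 CPM in some of its libraries. Of the 413, 226 were on in females, 197 in larvae and 43 in eggs, and 73 were off in every library of those 3 groups. Among all genes tested 80.7% were on in females, 79.9% in larvae and 69.3% in eggs, against 54.7%, 47.7% and 10.4% of the 413. Of the 263 genes on in pupae and off in males, 19 were on in females (7.22%), 49 in larvae (18.6%) and 44 in eggs (16.7%). Of the same 263, 101 were off in every library of those groups. No share over all genes was taken beside the 73 and the 101.

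Genes that rose in males stood near the level of all genes in females and larvae, and far below it in eggs as in pupae. The median over these genes of the group mean was 5.09 CPM in pupae and 39.5 CPM in males. It was 27.0 CPM in females, 27.8 CPM in larvae and 4.98 CPM in eggs. The low pupal and high male values were set by the choice of genes, while females, larvae and eggs are on neither side of it. Over all genes tested, these medians were 24.6 CPM in pupae, 27.0 CPM in males, 25.2 CPM in females, 22.9 CPM in larvae and 20.0 CPM in eggs. The comparison of females with pupae shares the pupal libraries, so its values are set beside those of males without a test: the median log2 change of the genes that rose was 2.44 in males and 1.91 in females. Of the 2106 genes that rose, 1648 were called in neither direction between the sexes, 381 were higher in males than females and 77 higher in females. Of all 11440 genes, 15.9% were higher in males and 11.7% higher in females. Among those that rose, 18.1% were higher in males and 3.66% higher in females. The male libraries serve both comparisons, and the first share moved with the fit. Without larva replicate 1, 26.4% of the genes that rose were higher in males, against 15.5% of all genes, and with the 9 libraries of pupae and adults the shares were 33.0% and 20.8%.

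Larvae and eggs are on neither side of the main comparison, though in the same fit. Of the genes that rose, 1142 were higher in larvae than in eggs (54.2%), against 31.9% of all genes tested. Of the genes that fell, 812 were higher in eggs than in larvae (41.2%), against 27.3% of all genes. The opposite calls were fewer, with 259 genes that rose higher in eggs and 360 that fell higher in larvae. Larva replicate 1 stands apart from the other larval libraries, with many male genes on, and without it the first share was 48.2% against 25.8% of all genes and the second 39.4% against 29.6%. The comparison of females with larvae, also with neither group in the main one, gave shares nearer to the background. Of the genes that rose, 19.8% were higher in females and 21.6% higher in larvae, against 16.5% and 20.3% of all genes. Of the genes that fell, 14.5% were higher in females and 19.3% higher in larvae. These backgrounds moved with larva replicate 1. Without it, 19.1% of all genes were higher in females and 12.5% higher in larvae. The shares were then 21.3% and 15.6% of the genes that rose, and 14.7% and 17.6% of those that fell.

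Genes that fell had a median over genes of 106 CPM in pupae and 17.4 CPM in males, values set by the choice of genes. The median was 20.0 CPM in females, 21.1 CPM in larvae and 32.9 CPM in eggs, which are on neither side of that choice. Set side by side with the same pupae, the median log2 change of the genes that fell was -2.04 in males and -2.21 in females. Between the sexes, 1498 of the 1969 were called in neither direction, 158 were higher in males (8.02%) and 313 higher in females (15.9%). The shares of all genes were 15.9% and 11.7%, and the male libraries serve both comparisons. The authors' deposited table lists 481 genes for pupae, of which 454 of the 480 tested fell and 0 rose. Of the authors' male list, 118 of 169 tested rose and 0 fell. The authors drew up these and their other lists from these very libraries, so no count of listed genes is independent evidence of direction. Their larval list is named for a stage on neither side here, though choosing genes specific to larvae can favour low pupal and male levels. It had 74 genes that rose and 25 that fell of 222 tested, or 33.3% and 11.3% against 18.4% and 17.2% of all genes. Their egg list had 5 that rose and 36 that fell of 156, and their female list 11 and 9 of 86.

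To ask which male genes are already on in pupae, male genes were taken from the comparison of male with female adults, which has pupae on neither side. That comparison called 1820 genes higher in males. Of these, 981 had a fitted log2 difference of 4 or more, a 16-fold difference, and are called strongly male-biased. The genes nearest to this threshold stood at 4.003 inside it and 3.996 outside it. Male libraries chose these genes by being high, so a male level above the pupal one was favoured by the choice. Pupal libraries entered the choice only through the filter, the scaling and the shared estimate of spread, and leaving out 1 of them gave 934 to 938 strongly male-biased genes.

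Most strongly male-biased genes were on in pupae, at levels below those of genes at large. Of the 981 genes, 781 (79.6%) were on in all pupal libraries, 63 reached 1 CPM in some of them and 137 were off. Among all genes tested 88.2% were on in pupae, so the share is not high for genes at large. It is high against the other groups. Of the 981, 69 were on in females, whose low level helped to choose them. In eggs 96 were on and in larvae 97, and these groups are on neither side of that choice. Whether a choice for low female levels also favoured low egg levels was not tested. Larva replicate 1 was the exception, as 86.2% of the genes reached 1 CPM in that library, while 9.99% did in both larva replicates 2 and 3. In pupae their median over genes was 12.5 CPM, with quartiles of 2.48 and 43.2 CPM, against a median of 24.6 CPM over all genes. In males the median was 36.9 CPM, and in females 0.0686 CPM. In pupae 455 of the genes (46.4%) reached 10 CPM in every library and 74 (7.54%) reached 100 CPM. Over all genes tested the shares were higher, at 64.1% and 18.6%. In whole bodies, fewer cells of a type and less RNA per cell cannot be told apart.

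Pupae also stood above eggs in these genes, a comparison with neither adult group on either side, though in the same fit. The genes were chosen for low levels in females, and 9.79% were on in eggs, against 69.3% of all genes tested. That choice may have favoured low egg levels, which was not tested, so eggs are not a neutral reference here. Of the 981, 717 were higher in pupae than in eggs (73.1%), against 34.7% of all genes tested (edgeR, called as above). Their median log2 difference between pupae and eggs was 6.07, against 0.30 over all genes, and 18 were lower in pupae (1.83%), against 25.1% of all genes. Strong female bias of the same size was found for 127 genes. Of these, 54 were on in pupae (42.5%), 16 were higher in pupae than eggs (12.6%) and 74 were lower (58.3%). They were chosen for high female levels, and 86 were on in eggs (67.7%, against 69.3% of all genes). That choice may have favoured high egg levels, which was not tested.

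**Figure D4:**
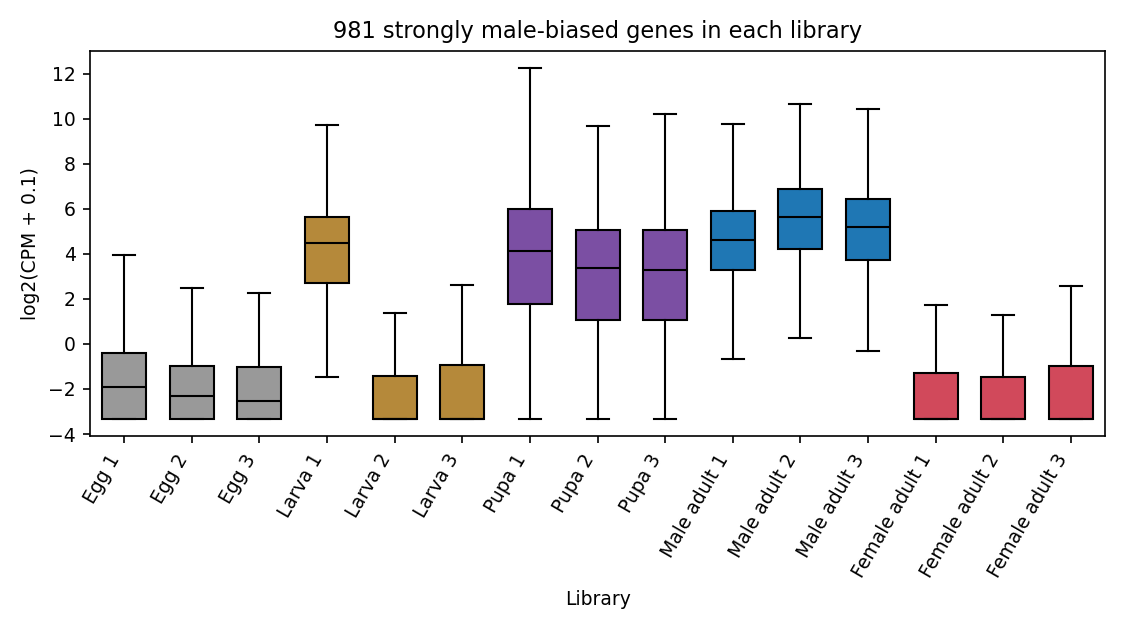
Levels of the 981 strongly male-biased genes, as log2(CPM + 0.1), in each of the 15 libraries. Boxes span the quartiles with the median as a line, whiskers reach to 1.5 times the box height and points beyond are not drawn; the 3 pupal libraries and larva replicate 1 lie close to the males, and eggs, females and larva replicates 2 and 3 lie near the bottom.

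Library by library, the male genes were lower in pupae than in males, and the groups lay close. Their median was 17.5, 10.2 and 9.48 CPM in pupal replicates 1, 2 and 3, and 24.4, 48.9 and 36.7 CPM in male replicates 1, 2 and 3. They took 7.66%, 4.24% and 4.35% of pupal counts and 8.53%, 15.5% and 12.2% of male counts. In females the share was 0.0629 ± 0.00723% (SD, n = 3). Pupal replicate 1 was the highest pupal library and male replicate 1 the lowest male one in both measures, and the groups did not overlap. The same male libraries chose these genes by being high, so the gap was favoured by the choice and is not a test. With 3 libraries a side, an exact two-sided permutation test cannot give a p under 0.10.

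Gene by gene, the male level was most often above the pupal one, which the choice of genes by high male levels favoured. Over all 981 genes the median fitted log2 change was 1.36, with quartiles of 0.52 and 2.22. Among the 781 genes on in pupae, the male mean was within 2-fold of the pupal mean in 343, higher by 2-fold to 8-fold in 390, and higher by 8-fold or more in 22. The pupal mean was higher by 2-fold or more in 26. Of all 10094 genes on in pupae, 5620 were within 2-fold. The median log2 ratio was 1.05 for the 781 genes and -0.02 for all genes on in pupae. Every male library was above every pupal library in 539 of the 981 genes (54.9%), which was so for 35.5% of all genes. The reverse held in 31 of the 981 (3.16%), against 34.8% of all genes.

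**Figure D5:**
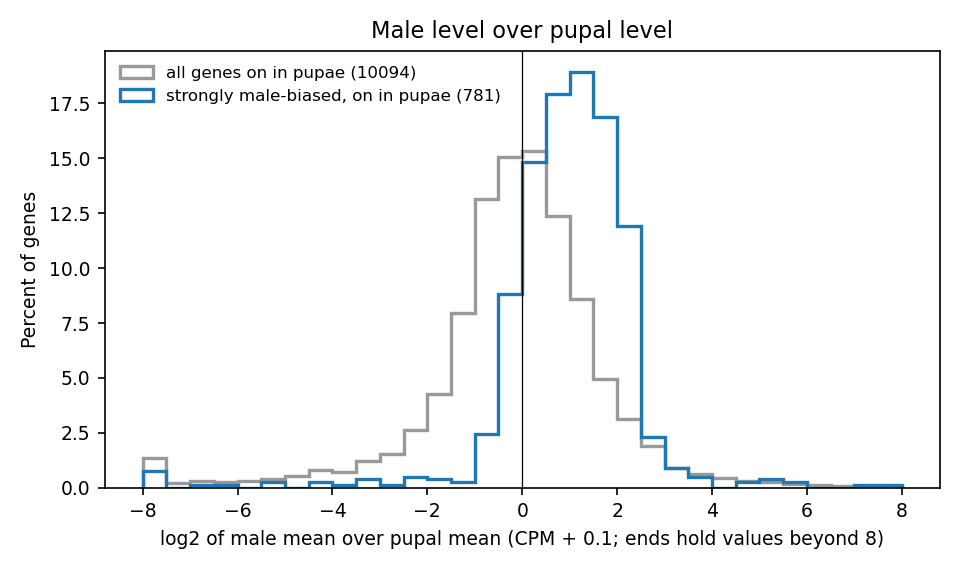
Distribution of the log2 ratio of the male mean to the pupal mean (CPM + 0.1) for all 10094 genes on in pupae (grey) and for the 781 strongly male-biased genes among them (blue), in percent of each set. The male genes are shifted to the right by about 2-fold, with a median log2 ratio of 1.05 against -0.02. Their choice by high male levels favoured this shift.

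How many of these genes passed the test depended on the libraries that shared the estimate of spread. With all 15 libraries, 126 of the 981 rose (12.8%, below the 18.4% of all genes) and 17 fell (1.73%, against 17.2%). The other 838 were not called, as were 7365 of all 11440 genes. Without larva replicate 1, 364 of 1003 strongly male-biased genes rose, or 36.3% against 20.2% of all genes. With only the 9 libraries of pupae and adults, 481 of 992 rose, or 48.5% against 23.6% of all genes. The share thus moved from below the background to above it, and what in larva replicate 1 and the other libraries moved it was not tested. The number of strongly male-biased genes on in pupae was 785 and 792 in these fits. Without female adult replicate 2, 617 genes were strongly male-biased and 492 of them were on in pupae, and without female adult replicate 1 the numbers were 712 and 568. As a share, 78.3% to 82.4% of strongly male-biased genes were on in pupae in every fit that was run. Among all 1820 male-biased genes, 381 rose with all libraries (20.9%, near the 18.4% of all genes) and 158 fell (8.68%, against 17.2%). Without larva replicate 1, 612 of 1786 male-biased genes rose and 154 fell. With the 9 libraries, 878 of 2352 rose and 325 fell. Of all genes, 2193 and 2337 fell in these fits. Genes without a call are thus not shown to be level between pupae and males.

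CAG9862100.1 and CAH1168618.1 are the strongly male-biased genes most abundant in pupae among those not called between males and pupae, a choice that favours a high pupal level. CAG9862100.1 held 2566, 818 and 1169 CPM in pupae and 688, 897 and 1173 CPM in males. The groups overlapped, and the log2 change was -0.72 ± 1.48 (SE, adjusted p = 0.718, edgeR). Females held 2.85, 1.84 and 1.98 CPM, and the authors' lists do not hold it. Per length it reached 616 TPM in pupae and 393 TPM in males in the authors' means. CAH1168618.1 held 4829, 4286 and 2681 CPM in pupae and 187, 412 and 325 CPM in males. Here every pupal library was above every male one, by a log2 of -3.68 ± 1.75 for males against pupae (SE). With all 15 libraries the adjusted p was 0.107 in edgeR and 0.0351 in the DESeq2 Wald test. In edgeR it was 0.000521 without larva replicate 1 and 0.000166 with the 9 libraries of pupae and adults. Larva replicate 1 held 165 CPM of it, and larva replicates 2 and 3 held 0.412 and 0 CPM.

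A few genes called strongly male-biased were far higher in pupae, and most of them were low in both sexes. Genes this low in adults can pass the filter through their pupal counts, which favours a high pupal level among them. Of the 17 that fell, 14 had a male mean under 10 CPM, and their median was 0.904 CPM in males and 81.4 CPM in pupae. CAG9864551.1 is the most abundant in pupae, with 11639, 6908 and 5557 CPM. Males held 0.405, 0.711 and 0.167 CPM and females no count. The change from pupae was -14.19 ± 1.10 in log2 (SE, adjusted p = 1e-05, edgeR). Its male bias rests on 26 counts over the male libraries. Eggs held 19 counts of it and larvae 6, so it passed the filter through its pupal counts. CAG9858814.1 held 5620, 4263 and 2812 CPM in pupae, 3.70, 10.3 and 4.46 CPM in males and 0.193, 0.294 and 0 CPM in females. Males were lower than pupae by a log2 change of -9.42 ± 1.79 (SE, adjusted p = 0.0011, edgeR). The authors list both for pupae.

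A smaller set of male genes was off in pupae. Of the 981 strongly male-biased genes, 137 were off in pupae and 36 had no count in any pupal library. Of all 11440 genes tested, 881 were off in pupae and 103 had no count there, both smaller parts of the whole. Of the 137, 69 had a male mean under 10 CPM, and 21 reached 100 CPM in every male library. CAG9854698.1 and CAG9862378.1, the genes with the largest gains above, were the most abundant of the 137 in males. The share on in pupae was also taken by male level. Of strongly male-biased genes with a male mean under 10 CPM, 71 of 184 were on in pupae (38.6%), against 512 of 572 at 10 to 100 CPM (89.5%) and 198 of 225 at 100 CPM or more (88.0%). For all genes in the same ranges the shares were 68.4%, 95.7% and 96.0%, and the differences were not tested.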

How the data were processed

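Gene counts of 15 whole-body libraries were analysed, with groups and replicate numbers from the sample titles. The authors deposited raw read counts per gene. Tools in the submitters' processing notes are fastp, HISAT2 and featureCounts. No source used here gives versions, settings, strandedness or the genome build. Also deposited were a table, made by the authors, of TPM averaged over each group, which has no spread, and a table of other values, namely gene identifiers listed per stage or sex.

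Counts were filtered with filterByExpr, which left 11440 genes and dropped 422. They were scaled by TMM and tested with edgeR 4.0.16 (R 4.3.3, quasi-likelihood, robust) in one model of 5 groups over all 15 libraries, with Benjamini-Hochberg adjustment over all genes tested. Standard errors are approximate, taken from the log2 change and its F statistic. DESeq2 1.42.0 was an alternative. The pipeline was tested on simulated data.

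Without annotation, the lists of gene families fixed by name could not be used. Members, lists and tests were chosen with earlier results of these data known. The comparison of pupae with eggs was added after the data were seen. Named genes are, in each direction between males and pupae, the called gene with the largest fold change and that with the largest difference in mean CPM, among genes with no overlap of libraries and at least 10 CPM in the higher group. Among strongly male-biased genes they are the 2 most abundant in pupae of those not called, the 2 most abundant in pupae of those that fell, and the 2 most abundant in males of those off in pupae.

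Between replicates of males or of pupae, counts differed beyond sampling noise (chi-square per gene of 91.5 or more), so each library counts as 1 sample. No label says whether replicates came from separate collections, so p-values measure only the spread among these libraries, some of which may be technical. Without names, genes that share reads with a near-identical copy or an overlapping gene cannot be recognised.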

Additional observations from a re-analysis of the deposited data

Results flagged for a closer look

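For CAG9854698.1 and CAG9862378.1, the change from pupae to adults differed between the sexes, and the difference was tested directly as males against females in the same fit. The adjusted p was 1.06e-05 for CAG9854698.1 and 0.000104 for CAG9862378.1 (edgeR). Both rose in males, and in females, where their means were 0.0245 and 0.349 CPM, their adjusted p against pupae was 0.325 and 0.139 (edgeR). The same pupal libraries serve both sexes.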

How the results depend on the processing

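Of 348 alternative values of the counts, shares and the median, 286 stayed close to the main value, counts within 1.5 times of it. Of 152 alternative values of named genes, 148 kept their side of the threshold, 0 turned and 4, all of CAH1168618.1, passed it. Leaving out single libraries of males, pupae, females and larva replicate 1 gave 1804 to 2319 genes that rose, 1768 to 2193 that fell, a median log2 of -0.000624 to 0.12, 925 to 1786 male-biased genes and 779 to 1563 of them on in pupae. Of male-biased genes 210 to 612 rose and 64 to 232 fell. Of strongly male-biased genes 492 to 785 were on in pupae, 107 to 364 rose and 460 to 837 were higher in pupae than eggs. Genes that rose held 29.5% to 33.1% of male counts and genes that fell 43.7% to 48.0% of pupal counts.

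Library size alone gave a median of 0.31, 2471 genes that rose and 1608 that fell, 73 male-biased genes that fell, shares of 35.8% and 40.9%, and, between females and larvae, 848 genes that rose higher in females and 186 that fell higher in larvae. DESeq2's size factors in edgeR gave a median of 0.17 and a pupal share of 43.8%. The DESeq2 Wald test gave a median of 0.17, with 597 male-biased genes that rose and 279 that fell. The 9 libraries of pupae and adults gave 878 and 325, 481 strongly male-biased genes that rose and shares of 36.5% and 49.1%. The 6 libraries of the comparison gave 2803 genes that rose, 2265 that fell and shares of 37.9% and 47.7%. Without a minimum fold, 248 male-biased genes fell, 1439 genes that fell were higher in eggs than larvae, 645 that rose were higher in females than larvae, 575 that fell were higher in larvae than females, and shares were 37.8% and 52.2%. A minimum log2 of 2 gave 1262 genes that rose and 1007 that fell, 1026 male-biased genes on in pupae, 177 that rose and 46 that fell, 264, 183 and 184 for the same 3 comparisons in that order, and shares of 22.4% and 30.03%. At 5 CPM, 668 genes were on in males and off in pupae and 450 the reverse. The cause was not tested in any of these.

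Deviations of same-numbered males and pupae correlated at -0.20 to -0.02, so no pairing by replicate number was seen. These values cannot show whether same-numbered libraries shared a collection. The replicate block gave 2003 genes that rose and 1923 that fell.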

Other observations

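The deposited tables also carry the lengths of genes, since a gene's CPM divided by its TPM is proportional to the length used. The ratios from the male and the pupal columns agree, with an SD of 0.0316 in log2 over 10154 genes at 1 TPM or more in both. Relative to the median gene, genes that rose in males had a median length of 0.765 (male columns, 2092 genes, quartiles 0.475 and 1.11). Genes that fell had one of 1.23 (pupal columns, 1956 genes, quartiles 0.724 and 2.10). Strongly male-biased genes were the shortest of these sets, at 0.673 (male columns, 964 genes, quartiles 0.418 and 1.04). Over all genes the quartiles were 0.626 and 1.64 in the male columns. Counts, and with them the power of the test, grow with length, and the part of this in the calls was not tested.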
